A study of Caenorhabditis elegans with 2 samples.

Results

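The genes described here encode the mitochondrial respiratory chain of Caenorhabditis elegans, and the question is which of their promoters were occupied by a tagged C06A6.2 protein in whole young adults. The set was chosen with earlier results of these data known, so its share of peaks is a description only. Its genes were taken by name, from the prefixes and single names used for subunits of the chain. This gave 71 of 19973 nuclear protein-coding genes. By name, 33 belonged to complex I, 5 to complex II, 7 to complex III, 15 to complex IV and 9 to complex V, and 2 encoded cytochrome c. The complex IV group took in 8 genes for assembly factors of cytochrome c oxidase. The 12 proteins encoded in mitochondrial DNA were outside the rule, and no list held a peak off the 6 nuclear chromosomes. The worms were young adults of strain OP810, given as 67 hours old, and synchronisation was by starving the L1 larvae obtained by bleaching. They carried the transgene wgIs810, in which C06A6.2 is joined to TY1, EGFP and 3xFLAG tags, with unc-119(+) beside it, and they had the unc-119 allele tm4063. Chromatin was immunoprecipitated through the GFP tag and sequenced (ChIP-seq) in 2 biological replicates of this 1 group. The labels do not say which promoter drives the tagged gene or in which cells it is made, and whole worms mix all tissues. No other strain was analysed here.

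The respiratory chain passes electrons from NADH and succinate to oxygen and uses the energy released to make ATP. Complex I (NADH dehydrogenase) and complex II (succinate dehydrogenase) feed electrons to ubiquinone, complex III passes them to cytochrome c, and complex IV (cytochrome c oxidase) reduces oxygen. Complex V, the ATP synthase, is driven by the proton gradient that the other complexes build. Most subunits are encoded in the nucleus, made in the cytosol and imported, so the complexes depend on the supply of many separate nuclear transcripts.

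A peak in the authors' conservative list of 1346 peaks, the joint list of both replicates thresholded on the irreproducible discovery rate (IDR), lay within 500 bp of an annotated transcription start site (TSS) in 11 of the 71 genes. The sequences below are the 75 bases on either side of the summit of 5 of these peaks, 1 from each complex, read on the strand of the gene from the RefSeq sequence of WBcel235, the assembly that ce11 names. They show what lies under the occupied sites and how the sites differ in the word GCGC, printed in capitals. For ucr-2.2 the first bases were left out because they are annotated as the UTR of another gene. The windows are chrII:11345771-11345921 on the minus strand for nduf-11 (complex I), and on the plus strand chrIII:10334085-10334235 for mev-1 (complex II), chrX:15173637-15173766 for ucr-2.2 (complex III), chrIII:12905116-12905266 for cox-5A (complex IV) and chrIII:5228111-5228261 for atp-2 (complex V).
nduf-11: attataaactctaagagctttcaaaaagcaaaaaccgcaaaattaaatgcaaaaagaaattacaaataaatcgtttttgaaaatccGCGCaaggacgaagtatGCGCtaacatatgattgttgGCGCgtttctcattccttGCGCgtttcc
mev-1: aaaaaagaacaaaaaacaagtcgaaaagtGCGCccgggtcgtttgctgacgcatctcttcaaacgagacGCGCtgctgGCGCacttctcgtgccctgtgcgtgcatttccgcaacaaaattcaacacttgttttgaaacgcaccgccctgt
ucr-2.2: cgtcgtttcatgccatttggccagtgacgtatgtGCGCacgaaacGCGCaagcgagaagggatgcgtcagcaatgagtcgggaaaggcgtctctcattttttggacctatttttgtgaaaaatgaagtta
cox-5A: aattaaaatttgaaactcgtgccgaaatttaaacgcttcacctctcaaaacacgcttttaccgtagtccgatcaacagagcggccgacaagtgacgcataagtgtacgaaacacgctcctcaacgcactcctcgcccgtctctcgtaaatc
atp-2: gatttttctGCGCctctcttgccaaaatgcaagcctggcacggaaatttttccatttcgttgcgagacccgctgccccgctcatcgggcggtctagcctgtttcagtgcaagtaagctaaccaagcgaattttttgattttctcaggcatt

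GCGC, which is its own reverse complement, was present in the 151-base windows of 10 of the 11 genes. It occurred 4 times at nduf-11, 3 times at mev-1 and ndua-2, 2 times at ucr-2.2, ndua-8, cox-5B and atp-1, and once at atp-2, atp-5 and cox-6B, with overlapping matches counted. The exception was cox-5A, the gene with the strongest peak of the set. The same word was found in 46.5% of windows around all 1346 conservative summits, in 60.7% of the 527 windows around conservative summits chosen for any gene, and in 17.5% of windows of that length centred 200 bp upstream of the outermost 5′ end of all 19973 genes. In those upstream windows it was found in 7 of the 11 genes with a peak and in 19 of the 60 without. The word and the place of the upstream windows were picked after the data had been seen, so its frequency is a description only. GAGAGA, searched on both strands, was found in 2 of the 11 summit windows (ucr-2.2 and cox-5A), against 32.5% of all conservative summits and 10.97% of upstream windows of all genes. ACGCAG, also searched on both strands, was found in 0 of 11, against 19.2% of all conservative summits and 4.36% of upstream windows. The median GC content of the 11 windows was 45.03%, from 35.8% at nduf-11 to 54.97% at cox-5B, beside 46.7% for all conservative summits and 33.8% for upstream windows of all genes.

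The 11 genes with a conservative peak were 15.5% of the set (95% Wilson interval 8.88 to 25.7), where 3.28% of all nuclear protein-coding genes had one. Each of the complexes I to V had at least 1 such gene. They were ndua-2, ndua-8 and nduf-11 of complex I, mev-1 of complex II, ucr-2.2 of complex III, cox-5A, cox-5B and cox-6B of complex IV, and atp-1, atp-2 and atp-5 of complex V. Neither cytochrome c gene and none of the 8 assembly factor genes had one. The 11 peaks had 11 distinct summits, so no peak was counted for more than 1 gene of the set. In the replicates' own thresholded lists, 8 of the 71 genes had a summit in replicate 1 (11.3%, background 2.02%) and 6 in replicate 2 (8.45%, background 2.34%). Those 6 were also among the 8, so 8.45% had a summit in both lists, beside 1.52% of all genes. All 8 had a conservative peak, and ndua-8, cox-6B and atp-5 had one with no summit in either replicate's own thresholded list. The number of reads is unknown, so the intervals cover the counting of genes only.

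**Figure D1:**
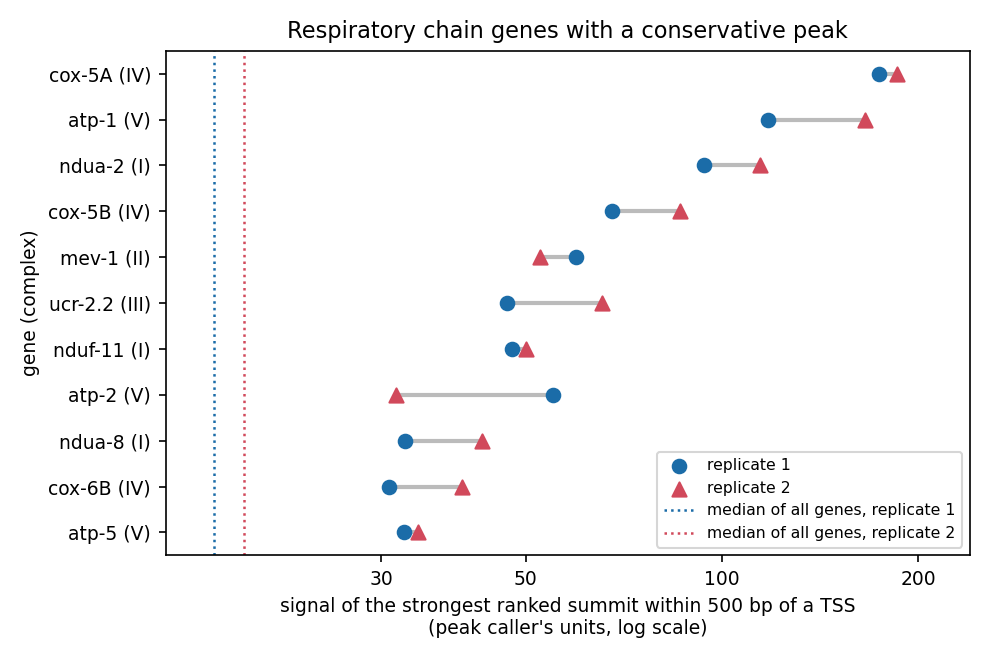
Signal of the strongest ranked summit within 500 bp of a TSS in replicate 1 (circles) and replicate 2 (triangles) for the 11 respiratory chain genes with a conservative peak, on a log scale in the peak caller's units, with the complex in brackets; dotted lines mark the median of all genes with a ranked summit, 16.6 in replicate 1 and 18.5 in replicate 2. All points lie right of both medians, which follows from the thresholding and is a description only. On this log scale atp-2 has the widest gap between the replicates, 54.9 in replicate 1 and 31.6 in replicate 2.

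The signal, the peak caller's value per peak, was read in each replicate from its ranked list, which also holds peaks below the IDR threshold. Complex IV held the strongest site of the set. cox-5A encodes a subunit of cytochrome c oxidase, and its strongest summit reached 174 and 185 in replicates 1 and 2. Its conservative peak (chromosome III, 12905089 to 12905293, signal 362) was the 44th of 1346 by signal and lay 300 bp upstream of the TSS, with no other protein-coding TSS within 500 bp. At a window of 250 bp, or with the summit nearest to the TSS in place of the strongest, its value in replicate 1 was 16.2, because a weaker summit lay closer to the gene. cox-5B, another subunit of the same enzyme, had signals of 67.8 and 86.3 in replicates 1 and 2, and a conservative peak of 147 on chromosome I (9788538 to 9788857), 27 bp upstream of the nearer of its 2 annotated TSSs. cox-6B had 30.9 in replicate 1 and 39.9 in replicate 2, with a conservative signal of 69.2 (chromosome III, 2785940 to 2786259). That summit lay 102 bp upstream of the inner TSS of cox-6B and was not in reach of the outermost one, which is annotated at position 2699663. By conservative signal cox-5B was 245th and cox-6B 1027th, and the other subunit genes, cox-4, cox-6A, cox-6C and cox-7C, had no conservative peak.

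In complex V, both subunits that form the catalytic head had a peak. atp-1 encodes the alpha subunit, and its summit reached 118 and 166 in replicates 1 and 2. The conservative peak (chromosome I, 12652190 to 12652352, signal 281, rank 75) had its summit 1 bp downstream of the TSS, the only one of the 11 that was not upstream. atp-2 encodes the beta subunit and had 54.9 in replicate 1 and 31.6 in replicate 2, which as a ratio was the widest difference between replicates among the 11 genes. In replicate 1 its IDR score was 1000, and in replicate 2 it was 31, far under the 830 at which the conservative list and that of replicate 2 began. The conservative signal of atp-2 was 83.2 (chromosome III, 5228026 to 5228345, summit 231 bp upstream). atp-5 encodes subunit d of the stalk and had the weakest of the 11 conservative peaks, 68.5 (chromosome V, 11123921 to 11124240, summit 214 bp upstream), with 32.5 in replicate 1 and 34.2 in replicate 2.

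Complex I, the largest group, had its strongest site at ndua-2, an accessory subunit of the alpha subcomplex. Its signal was 93.7 in replicate 1 and 114 in replicate 2, with a conservative peak of 215 on chromosome I (14113407 to 14113547, rank 124), 182 bp upstream of the TSS. nduf-11, annotated by RefSeq as the B14.7 subunit, had 47.6 in replicate 1 and 50.01 in replicate 2 and a conservative signal of 96.2 (chromosome II, 11345686 to 11346005, 226 bp upstream). Its IDR score was 1000 in replicate 1 and 767 in replicate 2, so only the list of replicate 1 included it. ndua-8, another accessory subunit, had 32.7 and 42.8 in replicates 1 and 2 and a conservative signal of 70.6 (chromosome III, 2528669 to 2528988, 234 bp upstream). Core subunits of complex I carry or surround its flavin and iron-sulphur centres. Of their genes, nuo-1, nuo-2, nuo-5, gas-1, nduf-7, ndus-8 and nduv-2 had no conservative peak. Only 3 of 33 genes of complex I (9.09%) and 3.28% of all genes had one, so no contrast with accessory subunits can be read from this. Ranked summits were present in both replicates at nuo-1, nuo-2 and nuo-5, in replicate 2 alone at nduf-7, in replicate 1 alone at ndus-8, and in neither at gas-1 and nduv-2.

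Complexes II and III each had 1 gene with a peak. mev-1 encodes a membrane-anchoring cytochrome b subunit of succinate dehydrogenase, whose mutation makes worms sensitive to oxygen. It had signals of 59.6 in replicate 1 and 52.6 in replicate 2, and a conservative peak of 114 (chromosome III, 10334000 to 10334319, 117 bp upstream of the nearer of 2 TSSs). mev-1 and atp-2 were the exceptions to the order of the replicates, the other 9 genes having the higher signal in replicate 2. ucr-2.2, a core subunit gene of complex III, had 46.8 in replicate 1 and 65.5 in replicate 2, and a conservative peak of 103 (chromosome X, 15173531 to 15173850, 213 bp upstream).

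Within the conservative list the 11 genes were spread from weak to strong: atp-5 was above 9.47% of all genes with a conservative summit and cox-5A above 95.6%. Their median conservative signal was 103 (68.5 to 362), and that of all 655 genes with a conservative summit was 99.5, with 6 of the 11 above it. In the replicates' ranked lists the 11 ranged from 30.9 to 174 (median 54.9) in replicate 1 and from 31.6 to 185 (median 52.6) in replicate 2. The genes of the set without a conservative peak that had a ranked summit ranged from 9.75 to 34.4 (median 18.2, n = 35) in replicate 1 and from 11.1 to 40.9 (median 18.7, n = 31) in replicate 2. Those ranges overlap slightly with those of the 11 in both replicates. The gap between the medians follows from the thresholding and is given as a description.

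Weaker summits were spread more widely over the set. A ranked summit of any strength lay within 500 bp of a TSS in 46 of the 71 genes in replicate 1 (64.8%, background 35.4%) and in 42 in replicate 2 (59.2%, background 33.2%). Both replicates had one at 35 genes (49.3%, Wilson interval 38.01 to 60.7), beside 19.5% of all genes, and neither had one at 18 genes (25.4%), beside 50.8% of all genes. The median signal over the genes of the set with a ranked summit was 19.6 in replicate 1 and 22.8 in replicate 2, beside 16.6 and 18.5 for all genes with one. Above the 90th percentile of all such genes, which was 31.8 in replicate 1 and 37.5 in replicate 2, stood 11 of the 46 genes in replicate 1 and 10 of the 42 in replicate 2. Ranked lists hold many peaks that did not repeat between replicates, and 11 genes of the set had a ranked summit in replicate 1 alone (signals 10.7 to 21.5) and 7 in replicate 2 alone (11.1 to 40.9).

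**Figure D2:**
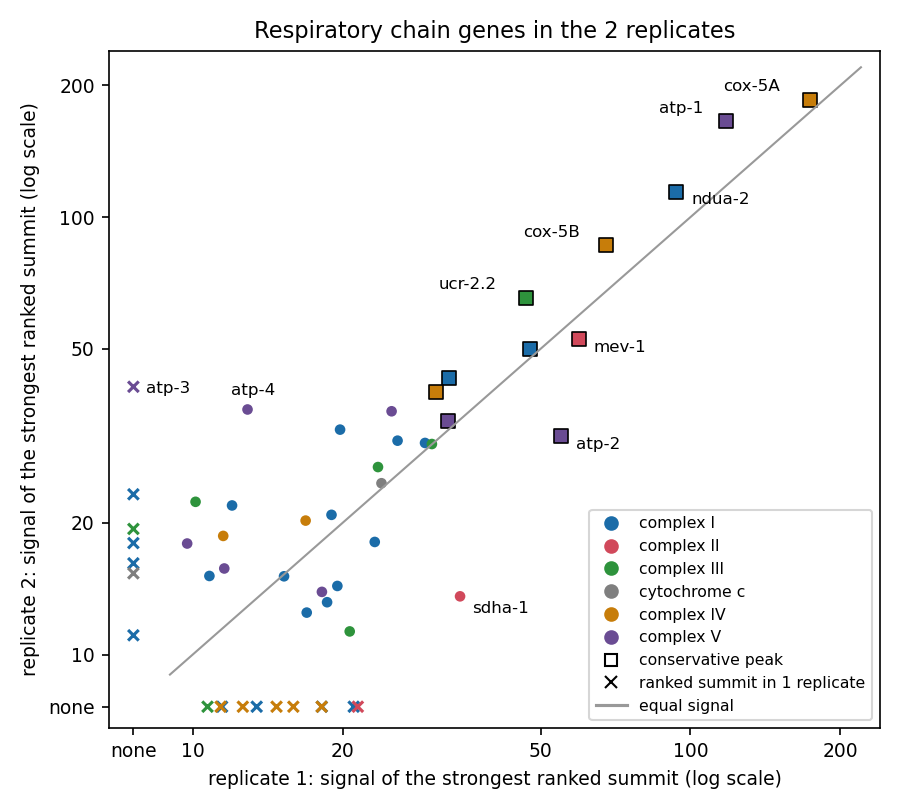
Signal of the strongest ranked summit in replicate 1 (horizontal axis) and replicate 2 (vertical axis) for each respiratory chain gene, both on log scales in the peak caller's units and coloured by complex; squares have a conservative peak, crosses at the axis position "none" had a ranked summit in 1 replicate, and the line marks equal signal. Of the squares, atp-2 lies farthest from the line, below it, while sdha-1, atp-4 and atp-3 are among the genes farther off.

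Across the 35 genes with a ranked summit in both replicates the order of the signals was similar (Spearman's rho 0.709), and replicate 2 was higher in 25, by a median factor of 1.14, beside 1.12 for the 3897 such genes in the whole genome. The genes share the same 2 libraries, so this describes the libraries and is no test. Among the 26 genes whose summits in the replicates lay within 100 bp of each other, rho was 0.819. For the 11 genes with a conservative peak the summits were at most 70 bp apart. Their ratio of replicate 2 to replicate 1 ran from 0.575 at atp-2 to 1.41 at atp-1. The conservative list was thresholded on how well peaks repeat, so this closeness follows from the selection and is a description only. Among the genes outside that list, several differed more between the replicates. sdha-1, which encodes the flavoprotein of succinate dehydrogenase, had 34.4 in replicate 1, above 91.4% of the genes with a ranked summit there, and 13.6 in replicate 2, above 18.1%. atp-3, which encodes the oligomycin sensitivity conferral protein of the ATP synthase, had 40.9 in replicate 2 and no ranked summit in replicate 1. At atp-4, coupling factor 6 of the same enzyme, the signals were 12.9 in replicate 1 and 36.3 in replicate 2, but at summits 504 bp apart, on either side of the TSS.

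Counts by complex were small, and for conservative peaks their intervals overlapped widely. The share of genes with a conservative peak was 33.3% in complex V (3 of 9, Wilson interval 12.1 to 64.6), 20% in complex IV (3 of 15, 7.05 to 45.2), 20% in complex II (1 of 5, 3.62 to 62.4), 14.3% in complex III (1 of 7, 2.57 to 51.3) and 9.09% in complex I (3 of 33, 3.14 to 23.6). Without its 8 assembly factors complex IV had 3 of 7 (42.9%, 15.8 to 74.95). No difference between complexes can be shown from such counts. The count of complex V was 1 of 9 with the optimal list, among the conservative peaks at or above the median signal of that list, and in the thresholded list of replicate 2, and it was 2 of 9 in that of replicate 1. For complex I, 1 of 33 had a summit in the thresholded list of replicate 2 and 2 of 33 in that of replicate 1, and at 1000 bp the conservative count was 5 of 33. For complex III it was 2 of 7 with the optimal list. Ranked summits in both replicates were found at 8 of 9 genes of complex V (Wilson interval 56.5 to 98.01) and 5 of 15 of complex IV (15.2 to 58.3). Complex III had 5 of 7, complex I 14 of 33 and complex II 2 of 5, beside the 19.5% of all genes given above. In complex IV the 5 were all subunits (5 of 7), with 0 of the 8 assembly factors. Every gene of complex V had a ranked summit in replicate 2 (9 of 9, Wilson interval 70.1 to 100) and 8 of 9 had one in replicate 1. In replicate 2 that interval lay above the one of complex IV (5 of 15, 15.2 to 58.3). The interval of complex V overlapped with that of the subunits of complex IV alone (5 of 7, 35.9 to 91.8). Whether the complexes differ was not tested. In complex I, 11 of 33 genes (33.3%) had none in either replicate, beside 50.8% of all genes. Among the 11 were gas-1, which encodes the 49 kDa-type core subunit, nuo-3, nuo-6 and nduv-2.

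**Figure D3:**
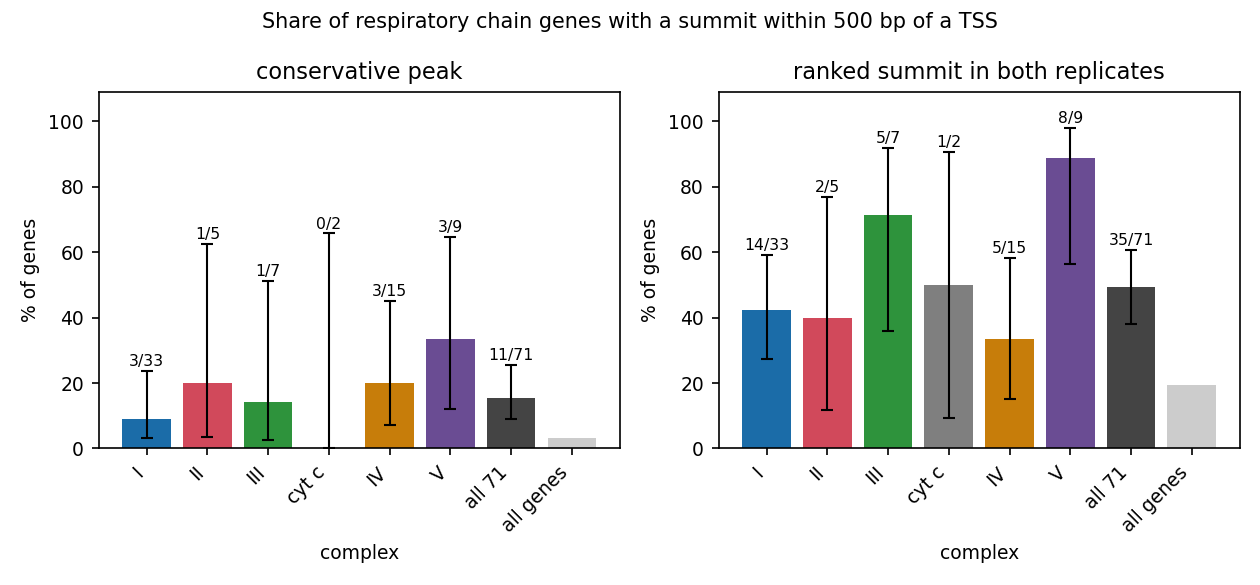
Share of genes with a conservative peak (left) and with a ranked summit in both replicates (right) within 500 bp of a TSS, by complex, over all 71 respiratory chain genes and over all nuclear protein-coding genes; the vertical axis is the percentage of genes, error bars (none for all genes) are 95% Wilson intervals, and the numbers above the bars are genes with a summit of genes in the group. The intervals of the complexes overlap in both panels, those of complexes IV and V in the right panel only narrowly. In the right panel the shares run from 5 of 15 genes in complex IV to 8 of 9 in complex V. Complex IV includes 8 assembly factors, with 0 of 8 in both panels. Its subunits alone had 3 of 7 in the left panel's measure and 5 of 7 in the right panel's.

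The levels by complex did not keep their order between replicates. Medians over genes with a ranked summit in replicate 1 were 34.4 in complex II (n = 3), 22.1 in complex III (n = 6), 21.6 in complex V (n = 8), 19.3 in complex I (n = 18) and 16.4 in complex IV (n = 10). In replicate 2 they were 39.9 in complex IV (n = 5), 34.2 in complex V (n = 9), 33.1 in complex II (n = 2), 24.6 in complex III (n = 6) and 19.5 in complex I (n = 18). At a window of 250 bp the median of complex V in replicate 1 was 32.5. The value of complex IV depended on its assembly factors in replicate 1 only. Of the 8 genes, cox-10, cox-11, cox-14 and cox-15 had ranked summits in replicate 1 with signals of 11.4 to 15.9, and none of the 8 had one in replicate 2. cox-10 and cox-15 act in the synthesis of heme A, and cox-11 and cox-17 in the delivery of copper to the enzyme. The 7 subunits of complex IV had a median of 24.5 in replicate 1 (n = 6) and 39.9 in replicate 2 (n = 5), and 3 of the 7 had a conservative peak, against 0 of the 8 assembly factors. The upper Wilson bound of 0 of 8 was 32.4%, which covers the counting of genes only.

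Genes with paralogs gave unequal values within the family. Of 3 ucr-2 genes, ucr-2.2 had the peak described above, ucr-2.1 had 30.2 in replicate 1 and 30.3 in replicate 2 at summits 11 bp apart, and ucr-2.3 had 10.1 and 22.3. ucr-2.1 was close to the threshold: its strongest joint ranked summit had an IDR score of 810 and a signal of 59.3, and the other joint thresholded list, here called the optimal list, included a summit for it. For the subunit g genes of the ATP synthase, asg-2 had 25.1 in replicate 1 and 36.0 in replicate 2, and asg-1 had 9.75 and 17.9. For the subunit b genes, asb-2 had 18.2 and 13.9, and asb-1, known for its germline expression, had 11.6 and 15.7. Between the cytochrome c genes, cyc-2.1 had 23.9 in replicate 1 and 24.6 in replicate 2, at summits 111 bp apart, whereas cyc-2.2 had a ranked summit in replicate 2 alone (15.3). For succinate dehydrogenase, sdha-1 had the values given above and sdha-2 had no ranked summit in either replicate.

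The limits of the 2 thresholds used were as follows. At the IDR threshold, atp-5 was the lowest of the 11 with a score of 951 in the joint ranked list, where the other 10 had 1000, and the nearest genes below were ucr-2.1 (810), ndub-8 (786, signal 62.5), asg-2 (714, signal 61.4) and nduv-3 (687, signal 55.9). At the distance threshold of 500 bp, cox-5A was the gene farthest inside at 300 bp. The nearest outside were nduc-2 at 752 bp, cox-6A at 766 bp and nduf-2.2 at 820 bp from a conservative summit, with signals of 69.2, 123 and 170. The summit nearest to nduc-2 is that of cox-6B, the gene just upstream of it on the same strand. cyc-2.1 lay 1052 bp from a conservative summit of signal 568.

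**Figure D4:**
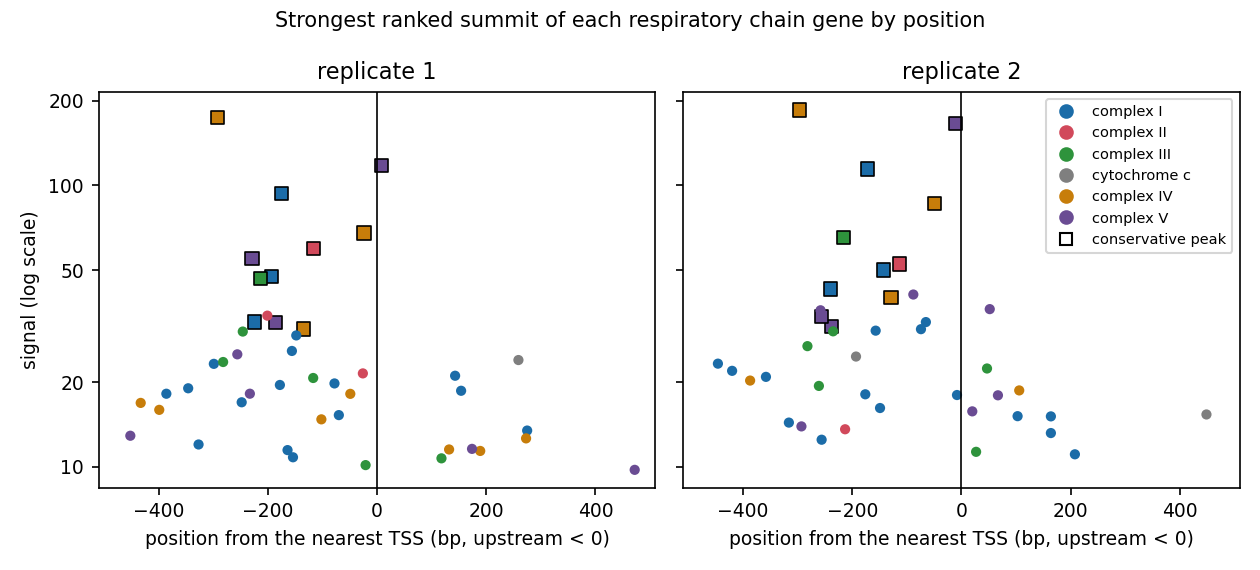
Signal of the strongest ranked summit of each respiratory chain gene (vertical axis, log scale, peak caller's units) against its position from the nearest annotated TSS in bp (horizontal axis, upstream below 0), for replicate 1 (left) and replicate 2 (right); squares have a conservative peak and colours mark the complex. All squares lie upstream of the TSS except that of atp-1 in replicate 1, 8 bp downstream, and the weaker summits are on both sides.

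Most of the summits lay upstream of the genes. Of the 11 conservative summits, 10 were upstream of the nearest TSS of the gene, with a median of 213 bp and a farthest of 300 bp. Over all 655 genes with a conservative summit, 87.5% had it upstream, with a median of 184 bp, so a summit upstream was also the usual case over all genes. Among the ranked summits, 35 of 46 in replicate 1 and 31 of 42 in replicate 2 were upstream, beside 53.5% and 56.4% over all genes. Without the 11 genes, the counts were 25 of 35 in replicate 1 and 20 of 31 in replicate 2. By chromosome, 5 of the 11 genes with a conservative peak were on III, 3 on I, 1 each on II, V and X and 0 on IV. The 60 without one had 11, 17, 10, 6, 5 and 11 genes on III, I, II, V, X and IV. Shares by chromosome over all genes were not counted, so no preference can be read from these numbers.

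Several of these promoters are shared with a neighbouring gene on the other strand, and the peak lists do not say which gene a site serves. For 7 of the 11 the summit was also within 500 bp of another protein-coding TSS, and for the other 4, nduf-11, ucr-2.2, cox-5A and cox-5B, it was not. The same share over all genes was not counted. All 655 genes with a conservative summit drew on 527 summits, so sharing also occurred outside this set. That is a different measure, and whether sharing was more frequent in this set was not tested. ndua-2 shares its summit with dnj-29, a DnaJ-type co-chaperone gene (346 bp from the summit), mev-1 with jmjd-4 (142 bp), atp-1 with mcrs-1 (191 bp), atp-5 with lmtr-3 (105 bp) and cox-6B with Y71H2AM.20 (152 bp). The summits of atp-2 and ndua-8 each reached 2 other genes, C34E10.10 and C34E10.12 at atp-2 and rbc-2 and Y54F10AM.15 at ndua-8. The respiratory chain gene was the nearest protein-coding gene for 9 of the 11, the exceptions being atp-5 and ndua-8. In addition to these genes, the atp-1 summit was 107 bp from the 5′ end of a piRNA gene, 21ur-12279. A gene on the same strand ended within 500 bp upstream of 2 of the 11 genes, nduf-11 and ucr-2.2, and of 20 of the 60 genes without a conservative peak. The gaps were 323 bp at nduf-11 and 268 bp at ucr-2.2, and the share over all genes was not counted. Genes inside worm operons also lie close together on the same strand, but operon annotation was not used here. Whether the spacing bears on the peaks was not tested.

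Other genes of mitochondrial energy metabolism were counted in the same way. In the tricarboxylic acid cycle and pyruvate dehydrogenase list, 2 of 22 genes had a conservative peak. They were aco-2, encoding mitochondrial aconitase (conservative signal 102, with 71.3 in replicate 1 and 32.3 in replicate 2), and dld-1, encoding the dihydrolipoamide dehydrogenase shared by several complexes of the cycle (76.01, with 43.02 and 33.8). Of 9 genes for nucleotide carriers, related membrane proteins and ATPase inhibitors, ant-1.1, an ADP/ATP carrier gene, had 143 (59.8 in replicate 1 and 85.6 in replicate 2), and mai-1, an ATPase inhibitor gene, had 77.4 (49.2 and 39.9) at a summit 151 bp downstream of its TSS. Among 18 assembly and maturation factor genes outside the name rule, sco-1, which acts in copper delivery to complex IV, had 151 (51.8 in replicate 1 and 102 in replicate 2). It was 1 of 18 there, beside 0 of the 8 assembly factors inside the rule. Coenzyme Q synthesis had 0 of 8, and mitochondrial translation and nucleoid genes had 1 of 21, ears-2 (407, with 199.9 in replicate 1 and 208 in replicate 2). These counts of conservative peaks stand beside the background of 3.28%.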

How the data were processed

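The data are ChIP-seq peak lists of 2 replicates in ce11 coordinates, per the deposited description texts. The authors made ranked and IDR-thresholded lists for each replicate and for both together. The deposited signal is the caller's value per peak, with scaling not given in the sources used here, and the deposited IDR score is at most 1000 and higher where the IDR is lower. Each list was made with a further input whose role the description does not state. No source used here names the aligner or caller, and depth is unknown. In the joint ranked lists, 4 columns with the signals of merged peaks were left unused.

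Annotation was Ensembl release 115 on WBcel235, with 29784 TSSs over the nuclear protein-coding genes. In the RefSeq sequence 99.9% of 31805 annotated start codons read ATG, and no peak ended beyond its chromosome. A gene took the strongest summit within 500 bp of any TSS (Python 3.11.15, NumPy 2.4.6, SciPy 1.17.1). The finder was tested on simulated summits at known positions. Named genes were those with a conservative peak, with a thresholded summit in 1 replicate and no conservative peak (0 genes), or with the highest ranked signal of their complex in a replicate. The others were named after their values were seen. Members and gene lists were chosen with earlier results of these data known. With 1 group of 2 samples no test was made: counts stand beside those over all genes, and shares carry 95% Wilson intervals. Of the names on the other lists, 22 of 22 for the cycle, 18 of 27 for assembly, 8 of 10 for coenzyme Q, 9 of 10 for carriers and 21 of 25 for translation were found in the annotation.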

Additional observations from a re-analysis of the deposited data

How the results depend on the processing

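The count of 11 genes with a conservative peak was 10 with a window of 250 bp, 14 with 1000 bp, 10 with the optimal list and 10 with only the outermost 5′ ends, and the background moved with it (2.09%, 4.47%, 3.35% and 3%). Only 7 were among the peaks of higher signal (background 2%). In the replicates' own thresholded lists, as given above, the count was 6 to 8. For complex I the count of 3 was 1 to 2 in the replicates' own thresholded lists and 5 at 1000 bp. For complex III it was 2 with the optimal list. For complex V it was 1 with the optimal list, which did not include atp-2 and atp-5, and 1 among peaks of higher signal. In the replicates' own thresholded lists the count of complex V was 1 to 2. The thresholded count of replicate 2 for complex I was 2 at 1000 bp, and that of complex IV in replicate 1 and in replicate 2 was 1 at 250 bp, where cox-5A falls outside.

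With genes that had no ranked summit counted as 0, the median ranked signal of the whole set was 12.9 in replicate 1 and 14.3 in replicate 2, that of complex I 11.5 and 12.5, that of complex II 21.5 and 0, that of complex III in replicate 2 22.3, that of cytochrome c in replicate 1 11.97 and that of complex IV in replicate 2 0. At 250 bp the median of the whole set was 30.3 in replicate 2, that of complex I 19.8 in replicate 1 and 18.1 in replicate 2, that of complex V 32.5 in replicate 1 and that of cytochrome c 24.6 in replicate 2. At 1000 bp it was 18.6 in replicate 1 and 19.2 in replicate 2 for complex I, 24.2 in replicate 2 for complex II and 33.5 in replicate 1 for cytochrome c. Among the other lists, the cycle genes had 0 at 250 bp, 1 among peaks of higher signal and 0 to 1 in the replicates' own thresholded lists. The carrier list had 1 among peaks of higher signal and 1 with only the outermost 5′ ends. It had 1 to 2 in the replicates' own thresholded lists. The cause of these moves was not tested. These are the 36 values that moved among the main counts, medians and shares, while 174 stayed within 1.5 times the count, the spread between replicates or the interval of the share. No paired analysis was possible because there was a single group. Depth is unknown, so a gene with no summit cannot be said to lack the protein.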
